A study of Mus musculus with 2 samples.

Results

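The 10 genes described here make up the machinery that cuts peptides, loads them onto and forms MHC class I molecules, with their transactivator: *B2m*, *H2-K1*, *H2-D1*, *Tap1*, *Tap2*, *Tapbp*, *Nlrc5*, *Psmb8*, *Psmb9* and *Psmb10*. They were taken by name from the 20299 genes of a kidney single-cell RNA-sequencing count matrix, and all 10 were found. Their UMIs (unique molecular identifiers, each counting a captured mRNA molecule) were summed over the cells of each of the 16 clusters that the study named, separately in the WT and the *Vsir-/-* library. *Vsir* encodes the checkpoint protein VISTA. Both genotypes were C57BL/6 mice aged 8 weeks, their kidneys digested with liberase, with nephrotoxic nephritis, a glomerular disease started by immunization against sheep IgG (200 μg, in complete Freund's adjuvant) and, 4 days later, an intravenous dose of 2 μl/g sheep nephrotoxic serum by the labels (the methods give a higher dose). There was 1 library per genotype, the number of mice in each was not stated, and no uninjected kidney was compared.

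MHC class I molecules show peptides from the inside of a cell to CD8+ T cells. A polymorphic heavy chain, in these mice the product of *H2-K1* or *H2-D1*, pairs with the invariant light chain beta-2 microglobulin (*B2m*). Peptides are cut by the proteasome, whose constitutive catalytic subunits (*Psmb5*, *Psmb6*, *Psmb7*) are replaced in immune and interferon-exposed cells by the inducible subunits of the immunoproteasome (*Psmb8*, *Psmb9*, *Psmb10*). They enter the endoplasmic reticulum through the transporter formed by *Tap1* and *Tap2* and are loaded with the help of tapasin (*Tapbp*), and *Nlrc5* is known as the transactivator of class I genes.

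The stretches before the transcription start of the class I chains are shown because NLRC5 acts through a shared promoter module there, of which the letters TGACG and ATTGG (the reverse complement of CCAAT) are parts. RefSeq promoter windows of build GRCm38.p6, 300 bases long, were at hand for 8 of the 10 genes. The letters TGACG followed after 20 bases of any kind by ATTGG, searched on both strands, were found in *B2m*, *H2-K1* and *H2-D1*, in 3 of the 8, and in 31 of all 32851 windows, or 0.0944%. TGACG alone was in 20.8% and CCAAT alone in 37.4% of all windows. The search was made with the sequences in view, and a match describes letters only. In the lines below, capitals mark TGACG and ATTGG, and *H2-M3*, the only gene of the other lists used here that held the pattern, is set beside the 3.
B2m (chr2:122147564-122147638, plus strand): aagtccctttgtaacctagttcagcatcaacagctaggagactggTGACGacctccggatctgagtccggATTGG
H2-K1 (chr17:34000359-34000433, minus strand): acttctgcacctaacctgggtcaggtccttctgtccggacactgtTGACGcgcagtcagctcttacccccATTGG
H2-D1 (chr17:35262948-35263022, plus strand): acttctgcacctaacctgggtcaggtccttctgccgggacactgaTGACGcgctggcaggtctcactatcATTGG
H2-M3 (chr17:37270143-37270217, plus strand): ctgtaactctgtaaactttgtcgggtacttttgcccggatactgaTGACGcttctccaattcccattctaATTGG
The windows of *Tap1*, *Psmb9*, *Psmb8*, *Psmb10* and *Tapbp* lacked the pattern. *Psmb9* and *Tap1* are transcribed away from each other, and the whole stretch between their starts, on the plus strand at chr17:34187331-34187555, is 225 bases long. Capitals mark its TGACG.
Psmb9 and Tap1: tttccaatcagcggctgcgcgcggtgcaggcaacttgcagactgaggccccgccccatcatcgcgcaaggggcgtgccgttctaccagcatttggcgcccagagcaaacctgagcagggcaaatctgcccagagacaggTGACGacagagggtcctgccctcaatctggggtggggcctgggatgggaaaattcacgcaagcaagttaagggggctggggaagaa

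The WT library held 5470 cells and 32799550 UMIs (median 4726.5 UMIs per cell), and the *Vsir-/-* library 1844 cells and 18601189 UMIs (median 6673). *Vsir* itself had 4278 UMIs in the WT and 8 in the *Vsir-/-* library, 130.4 and 0.43 CPM (UMIs per 1000000 UMIs of the library or cluster). The labels describe the WT cells as sorted for CD45 and the *Vsir-/-* cells as kidney cells of all kinds, whereas the study's methods describe sorting for both. The 36 tubule genes of the marker list were higher in every compared *Vsir-/-* cluster, from 1659 to 17660 CPM against 19.4 to 273 CPM in WT. In the *Vsir-/-* non-EM-like CD4+ cluster (EM, effector memory) and among *Vsir-/-* proliferating cells, only 33.2% and 34.9% of cells had a UMI of any of 6 T cell receptor complex genes (*Trac*, *Trbc1*, *Trbc2* and the CD3 chains *Cd3d*, *Cd3e* and *Cd3g*), and only 30.4% and 37.0% had one of *Ptprc*, which encodes CD45. Conversely, such T cell UMIs were in 48.7% of WT M2-like R2 macrophages, 31.9% of WT R1 macrophages, 26.9% of WT neutrophils and 42.9% of WT pDC (the cluster named plasmacytoid dendritic cells), against 8.33%, 5.49%, 5.06% and 5.81% in *Vsir-/-*. The libraries shared 5 cell barcodes. Genotype, sort and library cannot be told apart here, and no test between genotypes was possible. Intervals are 95% and cover counting error only.

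All 10 genes were detected in each of the 16 WT clusters, and their order across cell types differed from gene to gene. *B2m* was highest in other R2 macrophages (4363 CPM, 4249 to 4479) and R1 macrophages (3785 CPM) and lowest in B cells (1565 CPM, 1524 to 1607), a range of 2.79-fold. Of the 15 neighbouring pairs in that order, 9 had overlapping intervals. Among T cells, the EM-like clusters stood above the non-EM-like ones, with 3265 against 1813 CPM in CD4+ and 2965 against 2075 CPM in CD8+ cells.

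The heavy chains did not follow *B2m* in every cell type. *H2-K1* was highest in EM-like CD8+ T cells (3551 CPM), ILC2 (group 2 innate lymphoid cells; 3479 CPM), NK cells (3466 CPM) and EM-like CD4+ T cells (3455 CPM), whose neighbouring intervals overlapped, and lowest in neutrophils (1296 CPM, 1251 to 1341). *H2-D1* was highest in other R2 macrophages (3538 CPM) and lowest in the non-EM-like CD4+ and CD8+ T cells, at 1485 CPM in each. Neutrophils therefore held the last place for *H2-K1* and the fourth for *H2-D1* (2878 CPM, 2812 to 2946). Their *H2-K1* interval overlapped that of basophils (1410 CPM, 1223 to 1616). In WT neutrophils, 4 neutrophil marker genes summed to 257200 CPM, which lowers the CPM of every other gene there. M2-like R2 macrophages were likewise low for *H2-K1* (1824 CPM) and in the upper part of the order for *H2-D1* (2809 CPM).

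Transporter and loading genes could not be ranked from 1 cluster to the next. *Tap1* ran from 200.0 CPM in R1 macrophages to 86.6 CPM in the non-EM-like CD4+ cluster, and *Tap2* from 143.8 CPM in EM-like CD4+ T cells to 69.7 CPM in M2-like R2 macrophages. All 15 neighbouring pairs overlapped for both genes and for *Tapbp*. The 3 macrophage clusters held the top places for *Tap1* (181.9 to 200.0 CPM), and M2-like and other R2 macrophages were near the bottom for *Tap2* (69.7 and 73.4 CPM). *Tapbp* was highest in M2-like R2 macrophages (320.7 CPM, 304.2 to 337.9) and lowest in the non-EM-like CD4+ cluster (121.9 CPM).

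*Nlrc5* had the widest spread over the WT clusters, from 122.7 CPM (99.9 to 149) in EM-like CD8+ T cells to 11.3 CPM (2.34 to 33.1) in pDC, the latter from 3 UMIs. EM-like CD4+ T cells (80.99 CPM), NK cells (63.1 CPM) and NKT cells (60.7 CPM) came next, and B cells (19.2 CPM) and basophils (13.8 CPM, from few cells) stood near the bottom. *Psmb8* was highest in EM-like CD4+ T cells (704.7 CPM) and lowest in neutrophils (299.1 CPM) and basophils (261.3 CPM). *Psmb9* was highest in proliferating cells (321.3 CPM) and pDC (321.1 CPM) and lowest in basophils (48.1 CPM, 19.4 to 99.2, from 7 UMIs). *Psmb10* ranged 5.25-fold, from 281.4 CPM in M2-like R2 macrophages to 53.6 CPM (44.9 to 63.5) in neutrophils.

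**Figure D1:**
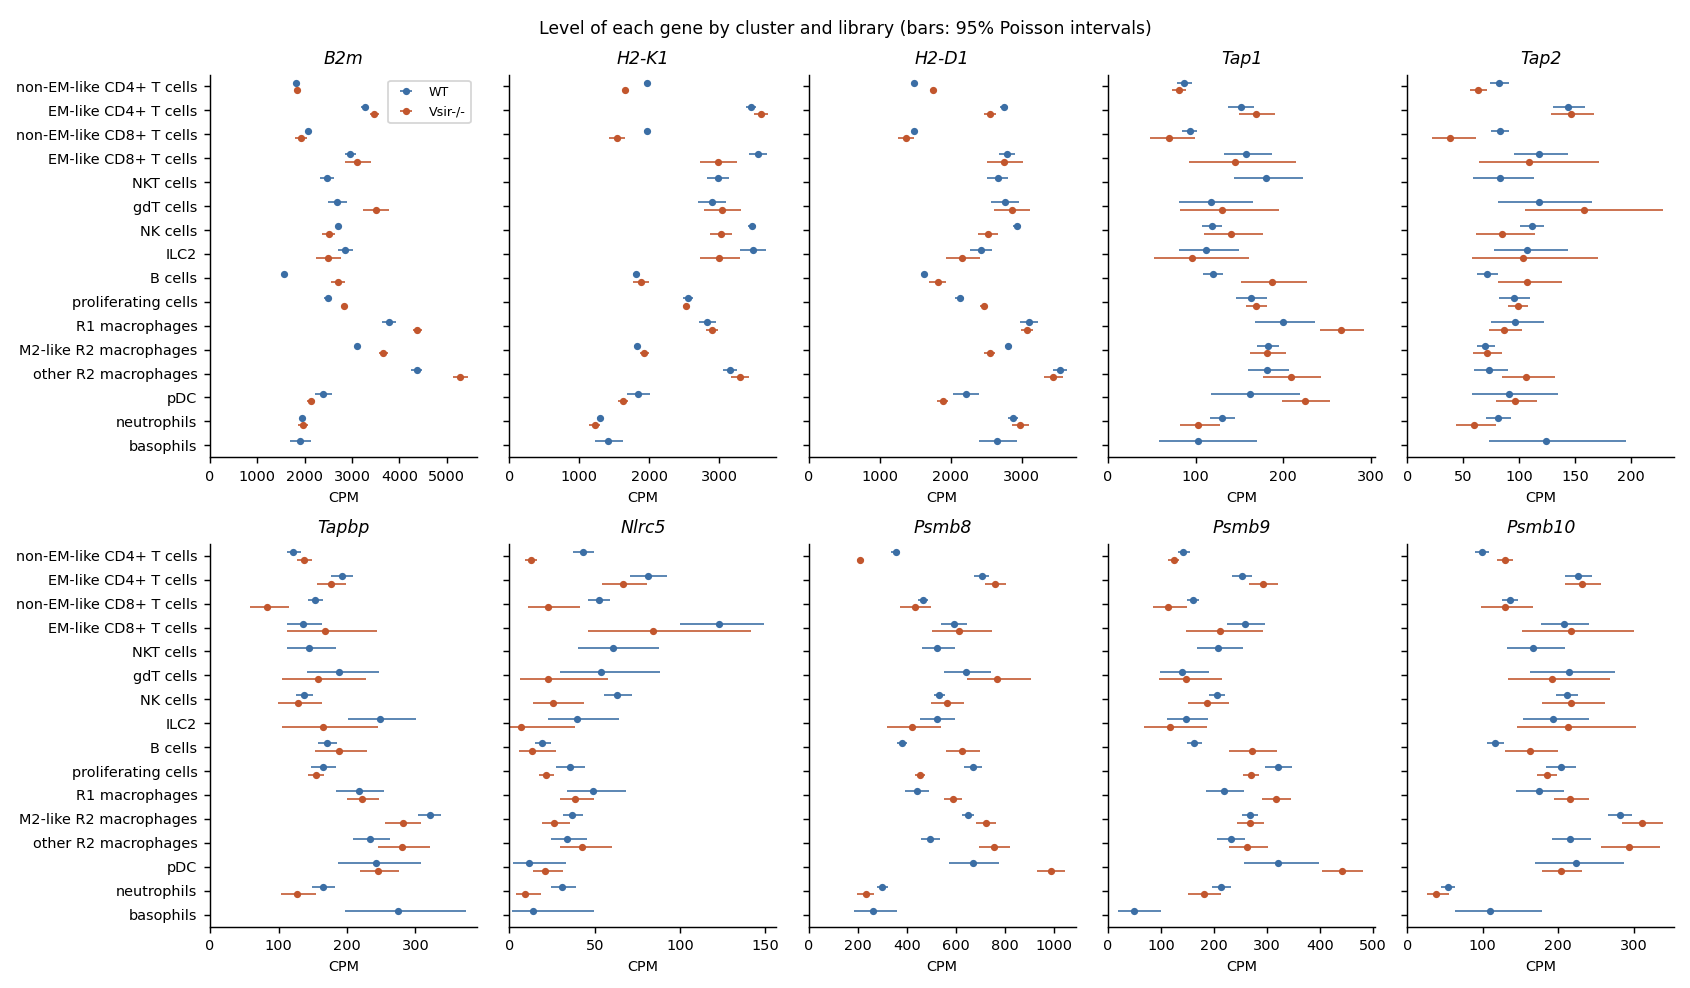
Level of each gene in CPM (x axis, from 0) by cluster (y axis) in the WT (blue) and the *Vsir-/-* (orange) library, with bars for 95% Poisson intervals; clusters with under 10 cells in a library have no point there. *B2m* is highest in other R2 macrophages in both libraries (4363 and 5284 CPM), and *Nlrc5* is highest in EM-like CD8+ T cells in both (122.7 and 84.3 CPM).

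Levels of most pairs of the 10 genes were positively correlated across clusters. The Pearson r of log2 levels is given as a description over points that share a library. Its median was 0.34 over the 45 gene pairs in the 16 WT clusters, with 39 pairs above 0. In the 14 *Vsir-/-* clusters the median was 0.53, with 45 pairs above 0. No values for pairs of all genes stand beside these, so they do not show that the 10 genes are more alike than others. *Psmb8* and *Psmb10* were most alike in WT (r = 0.87, and 0.74 in *Vsir-/-*), and *Nlrc5* and *Tapbp* least (r = -0.52 in WT and 0.29 in *Vsir-/-*). Among 4127 genes outside the lists, the closest to the mean pattern of the 10 genes in WT were *Pomp* (r = 0.86), which encodes the proteasome maturation protein, *Surf1* (r = 0.86), *Aph1a* (r = 0.855), *Dynlrb1* (r = 0.84) and *Ap3d1* (r = 0.83). In the *Vsir-/-* clusters their r was 0.74, 0.25, 0.60, 0.55 and 0.59.

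Between genotypes, the levels of the class I genes were close in most of the 14 clusters that had at least 10 cells in each library. Of 138 pairs of gene and cluster with at least 20 UMIs, 0 were at least 2-fold higher in *Vsir-/-* (against 17.4% of the pairs of all genes) and 5 were at least 2-fold lower (against 9.48%). With at least 200 UMIs, where counting error matters less, the counts were 0 and 4 of 115, and the shares of all genes 14.5% and 7.07%. At 1.5-fold, 7 pairs were higher (26.4% of all) and 8 lower (18.1%). Over the 138 pairs the median log2 ratio of *Vsir-/-* over WT was -0.00, beside 0.07 for all genes. The interval lay above 0 in 32 pairs (23.4% of pairs of all genes) and below 0 in 31 (14.5%), and the directions differed between clusters. Counting intervals narrow as UMIs rise. Shares of all genes with such intervals, here and by cluster below, were not matched to the UMIs of the 10 genes. Of the 5 lower pairs, 4 were *Nlrc5* (in NK cells, neutrophils and both non-EM-like T cell clusters) and the other was *Tap2* in non-EM-like CD8+ T cells.

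**Figure D2:**
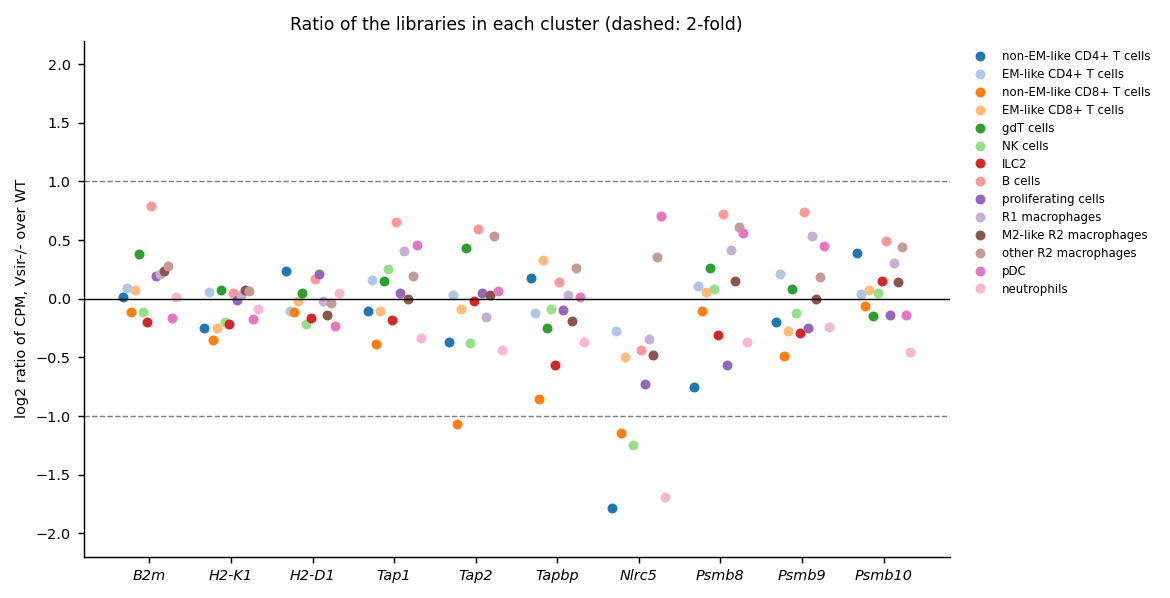
Log2 ratio of CPM, *Vsir-/-* over WT (y axis), for each gene (x axis); a point is a cluster, and the dashed lines mark 2-fold. No point is above the upper line, and the 5 points below the lower line are 4 clusters of *Nlrc5* and 1 of *Tap2*.

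*Nlrc5* was lower in the *Vsir-/-* library in 10 of the 12 clusters where it had enough UMIs, with the interval below 0 in 6 of them and above 0 in 0. Its median log2 ratio was -0.49, with 4 clusters at least 2-fold lower. It was -0.17 with 2 such clusters after a free RNA profile was subtracted (7.58% of UMIs in pDC to 85.7% in the non-EM-like CD4+ cluster), and -0.98 with 6 for the mean over cells. The clusters ILC2 (16 and 1 UMIs) and gdT cells (15 and 4 UMIs) had too few UMIs to be compared. In NK cells it had 237 UMIs in WT and 13 in *Vsir-/-*, or 63.1 and 25.7 CPM (log2 ratio -1.25, -2.23 to -0.50), where 7.01% of all genes were at least 2-fold lower. In non-EM-like CD8+ T cells it had 265 and 10 UMIs, or 52.4 and 22.6 CPM (log2 ratio -1.14, -2.29 to -0.31), where 9.66% of all genes were. Neutrophils held 77 and 7 UMIs, or 31.0 and 9.01 CPM (log2 ratio -1.69, -3.15 to -0.67), and -1.57 over the cells without a T cell UMI, beside 10.6% of all genes. The EM-like T cells had smaller ratios, with 80.99 and 66.6 CPM in CD4+ cells (log2 ratio -0.28, -0.63 to 0.06) and 122.7 and 84.3 CPM in CD8+ cells (log2 ratio -0.50, -1.46 to 0.27), where the intervals spanned 0.

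In the non-EM-like CD4+ cluster the *Nlrc5* ratio was -1.79, from 43.1 to 12.4 CPM (10.7% of all genes were at least 2-fold lower), but it was -0.74 (-1.36 to -0.21) when only cells with a T cell UMI were taken. It was -0.07 there after a free RNA profile was subtracted, which took away 85.7% of UMIs in this cluster. In neutrophils the *Nlrc5* ratio was -0.12 after thinning to 1000 UMIs per cell, with a UMI left in only 11 WT and 3 *Vsir-/-* cells. Other R2 macrophages (33.6 and 42.7 CPM, 0.35, -0.35 to 1.04) and pDC (11.3 and 21.1 CPM, 0.71, -0.81 to 3.27) had ratios above 0, both with intervals that spanned 0. Such a run of signs was not rare among all genes: of the 4556 genes tested in the same 12 clusters, 20.1% were below 0 in at least 10, and 6.34% were at least 2-fold lower in at least 4. In the 4 clusters where *Nlrc5* was at least 2-fold lower, *H2-K1* had log2 ratios of -0.35 to -0.09 and *B2m* of -0.12 to 0.01. *H2-D1* ranged there from -0.21 in NK cells to 0.24 (0.19 to 0.28) in the non-EM-like CD4+ cluster.

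B cells held the highest ratios of *B2m*, *Tap1*, *Tap2*, *Psmb8*, *Psmb9* and *Psmb10* among the clusters. *B2m* was 1565 and 2701 CPM in WT and *Vsir-/-* (log2 ratio 0.79, 0.70 to 0.87), *Psmb8* 381.3 and 627.1 CPM (0.72, 0.54 to 0.89), *Psmb9* 162.8 and 270.7 CPM (0.74, 0.46 to 1.001) and *Tap1* 119.5 and 186.8 CPM (0.65, 0.31 to 0.97). *H2-K1* had 1815 and 1876 CPM (0.05, -0.05 to 0.14) and *H2-D1* 1619 and 1815 CPM (0.17, 0.06 to 0.26), so the heavy chains differed less than the light chain. In all, 9 of 10 genes were above 0, with a median of 0.54. For all genes in B cells the median was -0.04, and 48.7% were above 0. Of the 10, 7 had an interval above 0 (20.1% of all genes, a share not matched for UMIs).

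The size of that difference rested in part on few cells. In *Vsir-/-* there were 88 B cells, of which 10, with over 3 times the median UMIs, held 53.8% of the cluster's UMIs. Without such cells in either library the median of the 10 genes was 0.27, *B2m* kept 0.69 (0.56 to 0.81), and *Psmb8* came down from 0.72 to 0.33 (0.03 to 0.60). When every cell weighed the same, 5 of 10 genes were above 0, with a median of 0.21. The 4 B cell markers summed to 5678 CPM in WT and 2122 CPM in *Vsir-/-* B cells, *Ptprc* was detected in 86.1% and 56.8%, and the tubule genes were at 45.4 and 7198 CPM. Their part in the result was not tested.

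In R1 and other R2 macrophages and in pDC, *Psmb8* was higher in *Vsir-/-*, and the heavy chains had no interval above 0 over all cells. *Psmb8* was 440.3 and 587.7 CPM in R1 macrophages of WT and *Vsir-/-* (log2 ratio 0.42, 0.23 to 0.61), 495.7 and 755.8 CPM in other R2 macrophages (0.61, 0.44 to 0.77), and 668.7 and 987.2 CPM in pDC (0.56, 0.33 to 0.80). Its constitutive partner *Psmb5* was also higher in *Vsir-/-*, at 103.6 and 136.8 CPM in R1 and 152.2 and 209.6 CPM in other R2 macrophages. In pDC *Psmb5* was 207.8 and 218.9 CPM. *Psmb9* differed likewise in R1 macrophages (218.7 and 317.3 CPM, 0.53, 0.27 to 0.81) and pDC (321.1 and 441.2 CPM, 0.45, 0.13 to 0.81). In other R2 macrophages the *Psmb9* interval spanned 0 (231.1 and 262.7 CPM, 0.19, -0.08 to 0.45). In M2-like R2 macrophages *Psmb9* was 267.9 and 268.0 CPM and *Psmb8* 650.6 and 723.5 CPM (0.15, 0.06 to 0.25). Over cells without a T cell UMI, the *Psmb8* ratios were 0.54 in R1 macrophages, 0.69 in other R2 macrophages, 0.52 in pDC and 0.07 in M2-like R2 macrophages. The *Psmb9* ratio was then 0.51 in R1 macrophages and 0.13 (-0.29 to 0.60) in pDC, from 12 WT cells.

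Markers of other cells differed between the libraries in these clusters. In WT and *Vsir-/-*, the 4 B cell markers summed to 1131 and 56.2 CPM in R1 macrophages, 1188 and 7.77 CPM in other R2 macrophages and 615.8 and 16.1 CPM in pDC, and T cell UMIs were in 24.5% and 3.82% of other R2 macrophages. The 4 neutrophil markers summed to 1724 and 129.3 CPM in R1 macrophages, 3574 and 210.9 CPM in other R2 macrophages and 166.2 and 61.7 CPM in pDC. The part of B cell and neutrophil transcripts in the *Psmb8* ratios was not tested.

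*B2m* was also higher in *Vsir-/-* in the 3 macrophage clusters, with log2 ratios of 0.21 in R1, 0.24 in M2-like R2 and 0.28 in other R2 macrophages, all with intervals above 0. Of all genes, 62.2%, 69.4% and 72.6% had a lower ratio than *B2m* in these clusters, in the same order. Over cells without a T cell UMI the *B2m* ratios were 0.10 (0.03 to 0.18), 0.21 (0.16 to 0.26) and 0.26 (0.20 to 0.33). Over all cells of the same clusters, *H2-K1* was between 0.03 and 0.08, with an interval above 0 in M2-like R2 macrophages only (0.02 to 0.14). *H2-D1* was between -0.14 (in M2-like R2 macrophages, -0.19 to -0.09) and -0.01. Over cells without a T cell UMI, *H2-K1* was 0.05 (-0.04 to 0.15) in R1, 0.11 (0.04 to 0.18) in M2-like R2 and 0.09 (0.01 to 0.17) in other R2 macrophages. Other R2 macrophages had 9 of 10 genes above 0 (median 0.27, all genes -0.06), R1 macrophages 7 of 10 (median 0.12, all genes -0.01) and M2-like R2 macrophages 6 of 10 (median 0.02, all genes 0.01). Of all genes, 45.7%, 49.3% and 50.7% were above 0 in these clusters, in the same order. The intervals above 0 numbered 5, 5 and 3, against 13.6%, 18.9% and 16.6% of all genes in these clusters. In pDC, *B2m*, *H2-K1* and *H2-D1* were all below 0 (-0.16, -0.17 and -0.23), the 3 intervals below 0 in this cluster (12.3% of all genes), opposite in sign to *Psmb8* and *Psmb9*. Over pDC without a T cell UMI, with 12 cells in WT, only *H2-D1* kept an interval below 0 (-0.24, -0.42 to -0.05). *B2m* was then -0.11 (-0.28 to 0.08) and *H2-K1* 0.001 (-0.21 to 0.22). Of the genes of the dendritic list, 0 of 6 were at 0 in either library (1666 CPM in WT and 1418 CPM in *Vsir-/-* summed), and the monocyte list summed to 3925 and 2505 CPM in the same cluster.

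**Figure D3:**
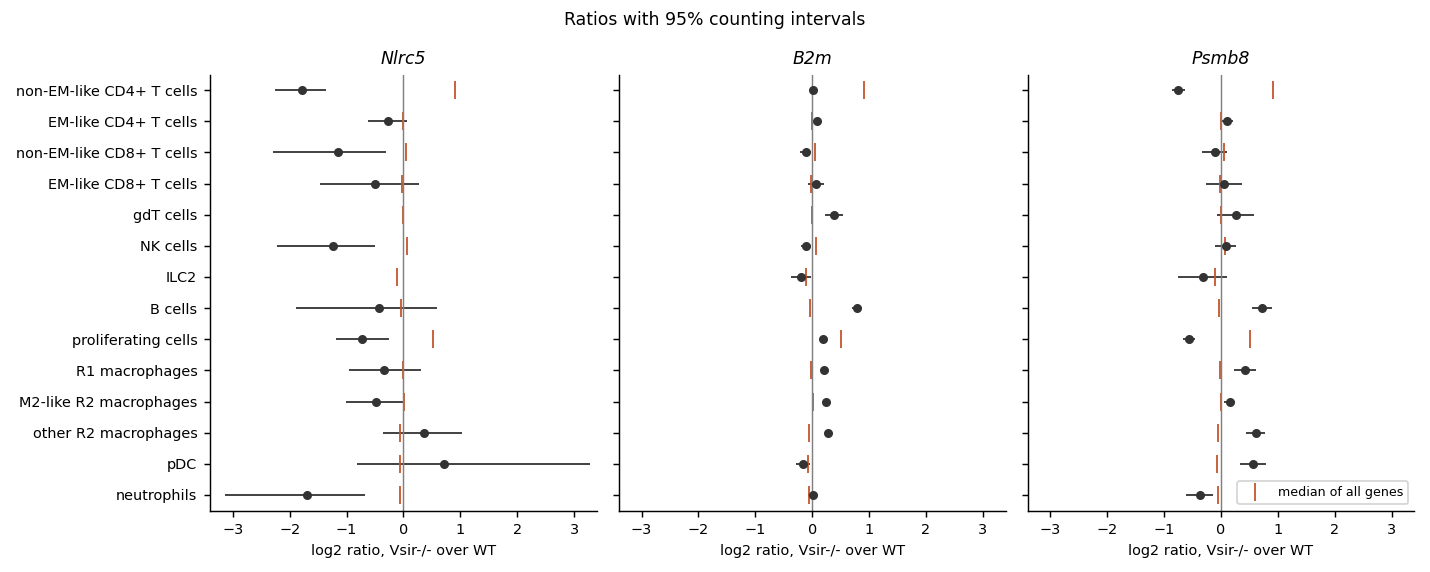
Log2 ratio, *Vsir-/-* over WT (x axis), of *Nlrc5*, *B2m* and *Psmb8* in each cluster (y axis); bars are 95% counting intervals, and orange ticks are the median of all genes in the cluster. *Nlrc5* lies left of 0 in 10 of 12 clusters, *B2m* lies right of it in all 3 macrophage clusters, and *Psmb8* is lowest in the non-EM-like CD4+ cluster (-0.75) and highest in B cells (0.72).

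Non-EM-like CD8+ T cells, NK cells and ILC2 had mostly lower values in *Vsir-/-*. In non-EM-like CD8+ T cells, 10 of 10 genes were below 0 (median -0.37, all genes 0.05, of which 52.9% were above 0). Intervals were below 0 in 6 (8.42% of all genes). The 50 *Vsir-/-* cells gave 17 UMIs of *Tap2* against 419 in WT, or 38.5 and 82.8 CPM (log2 ratio -1.07, -1.90 to -0.41), and 37 of *Tapbp* against 777, or 83.7 and 153.5 CPM (log2 ratio -0.86, -1.39 to -0.40). *H2-K1* was 1965 and 1538 CPM (log2 ratio -0.35, -0.47 to -0.24). In this cluster the tubule genes were at 71.3 CPM in WT and 6480 CPM in *Vsir-/-*, and the 9 T cell markers summed to 5889 and 4180 CPM. Their part in the lower values was not tested. NK cells had 7 of 10 below 0 (median -0.12, all genes 0.07, of which 54.8% were above 0). Among them, *B2m* (-0.11), *H2-K1* (-0.20), *H2-D1* (-0.21) and *Nlrc5* had an interval below 0 (4 of 10, against 8.81% of all genes). ILC2, with 19 *Vsir-/-* cells, had 8 of 9 below 0 (median -0.20, all genes -0.11, of which 43.5% were above 0), with tubule genes at 42.1 CPM in WT and 10180 CPM in *Vsir-/-*, and a median of 0.10 without the deepest cell of each library.

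In EM-like T cells the medians were near 0. In the CD4+ cells the 10 genes had a median of 0.05, with *Psmb9* at 0.21 (0.04 to 0.38) and *H2-D1* at -0.11 (-0.16 to -0.05). In the CD8+ cells the median was -0.05, with *H2-K1* at -0.25 (-0.39 to -0.11) as the 1 interval that left out 0. There, 7.01% of all genes had an interval below 0, and 35.5% had a lower ratio than *H2-K1*. The gdT cells (gamma delta T cells) had *B2m* at 2690 CPM in WT and 3504 CPM in *Vsir-/-* (log2 ratio 0.38, 0.23 to 0.54). Neutrophils had 8 of 10 below 0 (median -0.35, all genes -0.06, of which 46.3% were above 0). There *Psmb8* was at 299.1 and 231.7 CPM (-0.37, -0.61 to -0.13), *Tapbp* at 165.3 and 127.4 CPM (-0.37, -0.71 to -0.06), and *H2-D1* at 0.05 (-0.02 to 0.12).

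The clusters in which most *Vsir-/-* cells lacked a T cell UMI gave values that changed with the cells taken. In the non-EM-like CD4+ cluster the median of the 10 genes was -0.15, beside 0.91 for all genes, and *Psmb8* was 354.4 and 210.5 CPM (log2 ratio -0.75, -0.87 to -0.64). Over the 116 *Vsir-/-* cells with a T cell UMI, *Psmb8* was 376.5 CPM (0.09, -0.07 to 0.24), the median of the 10 genes was 0.50 and that of all genes 0.51. Tubule genes were still at 9535 CPM in those cells. The 233 *Vsir-/-* cells without a T cell UMI, of which 6.44% had a UMI of *Ptprc*, expressed all 10 genes at lower levels than the 116: *B2m* at 1603 against 2453 CPM, *H2-K1* at 1389 against 2400 CPM, *Psmb8* at 150.7 against 376.5 CPM and *Nlrc5* at 7.70 against 25.4 CPM. The median log2 ratio of the 10 genes between these cells was -0.78, beside 0.18 for all genes. Among proliferating cells, *Psmb8* was likewise -0.56 (-0.66 to -0.46) over all cells and 0.00 (-0.12 to 0.12) over those with a T cell UMI.

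Within each library, EM-like T cells had higher levels of most of the class I genes than non-EM-like T cells. The median log2 ratio of all genes was above 0 too, except in *Vsir-/-* CD4+ cells, so ratios above 0 were common. The share of all genes above 0 is not given. In WT CD4+ cells, 10 of 10 genes were above 0, with a median log2 ratio of 0.84 beside 0.40 for all genes, and *Psmb10* was past 2-fold, at 225.8 against 98.97 CPM (1.19, 1.013 to 1.37; 18.3% of all genes were past 2-fold). In WT CD8+ cells, 9 of 10 were above 0 (median 0.66, all genes 0.42), with *Nlrc5* at 122.7 against 52.4 CPM (1.23, 0.88 to 1.56; 19.2% of all genes past 2-fold). *Tapbp* was the exception, at 136.0 against 153.5 CPM (-0.17, -0.47 to 0.11). In WT, the 4 NK markers summed to 1968 CPM in the EM-like and 37.25 CPM in the non-EM-like CD4+ cluster. In the CD8+ clusters they summed to 4467 and 735.3 CPM. The part of the cells that each cluster holds was not tested.

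The *Vsir-/-* library had the same direction for most of the genes. With the non-EM-like CD4+ cells restricted to those with a T cell UMI, 9 of 10 were above 0 (median 0.48, all genes -0.14), and *Nlrc5* (1.37, 0.80 to 2.02) and *Psmb8* (1.02, 0.86 to 1.17) were past 2-fold, as were 9.25% of all genes. *H2-D1* differed by 0.09 (0.02 to 0.16), against 0.89 (0.84 to 0.94) in WT. *Tapbp* differed by -0.03 (-0.29 to 0.24), against 0.66 (0.48 to 0.83). For *H2-D1*, the EM-like cells had 2552 CPM in *Vsir-/-* and 2750 CPM in WT, and the non-EM-like cells 2403 and 1485 CPM. In these non-EM-like cells, tubule genes were at 9535 CPM in *Vsir-/-* and 147 CPM in WT, and their part was not tested. In CD8+ cells, 10 of 10 were above 0 (median 0.98, all genes 0.33), 5 of them past 2-fold (19.5% of all genes), from 28 EM-like and 50 non-EM-like cells. Whether EM-like and non-EM-like cells differed more in 1 genotype was not tested.

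**Figure D4:**
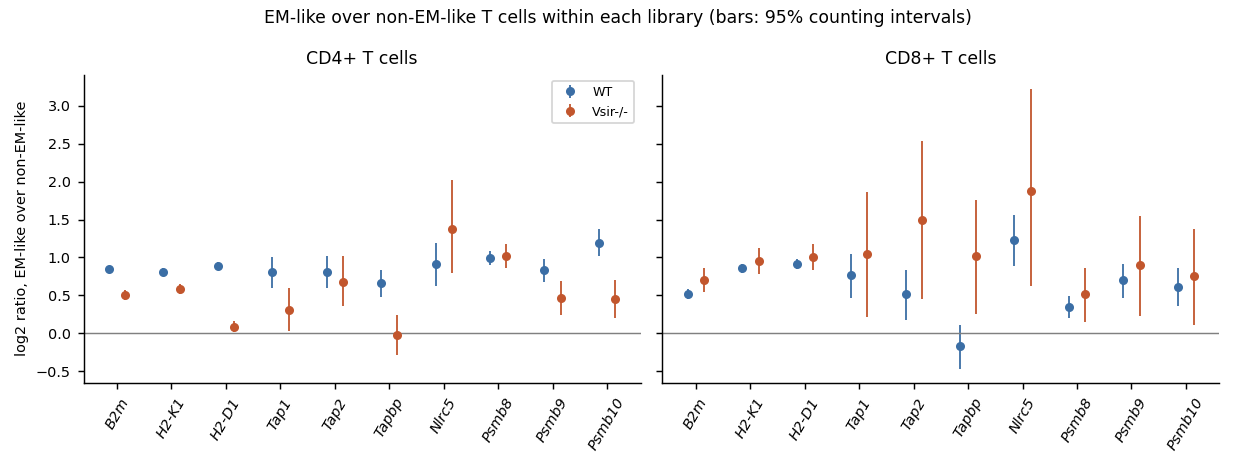
Log2 ratio of CPM, EM-like over non-EM-like (y axis), for each gene (x axis) in CD4+ (left) and CD8+ (right) T cells of the WT (blue) and the *Vsir-/-* (orange) library, with 95% counting intervals; *Vsir-/-* non-EM-like CD4+ cells are those with a T cell UMI. Nearly all points lie above 0, with medians of 0.84 (WT) and 0.48 (*Vsir-/-*) in CD4+ and 0.66 and 0.98 in CD8+ cells.

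The share of the inducible subunit in each proteasome pair lay between 52.0% and 84.0% in the WT clusters. It does not depend on the other genes of a cell, but it does depend on which cells a cluster holds. *Psmb8* took 72.7% to 82.0% of the UMIs of *Psmb8* and *Psmb5* in the 14 WT clusters, *Psmb9* 52.0% to 84.0% of those of *Psmb9* and *Psmb6*, and *Psmb10* 59.4% to 75.2% of those of *Psmb10* and *Psmb7*. Neutrophils had the highest WT share of *Psmb9* (84.0%, 80.87 to 86.75). They also had the highest of *Psmb8* (82.0%, 79.33 to 84.44) and the lowest of *Psmb10* (59.4%, 52.63 to 65.87). These last intervals overlapped those of other clusters, such as EM-like CD8+ T cells for *Psmb8* (81.85%) and proliferating cells for *Psmb10* (61.4%). Over all cells of each cluster, 31 of the 42 shares were lower in *Vsir-/-*. The interval of the difference was below 0 in 12 (4 for *Psmb8*, 6 for *Psmb9*, 2 for *Psmb10*) and above 0 in 1.

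The largest differences were in the non-EM-like CD4+ cluster, where the *Psmb8* share was 77.7% in WT and 45.7% in *Vsir-/-* (-32.0 points, -34.8 to -29.2) and the *Psmb9* share 59.98% and 33.9% (-26.1 points, -29.7 to -22.3), in a cluster where most *Vsir-/-* cells lacked a T cell UMI. Over the *Vsir-/-* cells with a T cell UMI there, the shares were 62.8% (*Psmb8*), 52.4% (*Psmb9*) and 65.3% (*Psmb10*, 64.85% in WT). Over those without one, the shares were 36.65%, 26.2% and 51.05%. Proliferating *Vsir-/-* cells with a T cell UMI had 73.0% for *Psmb8* and 56.9% for *Psmb9*. All WT proliferating cells had 72.7% and 56.3%, and all *Vsir-/-* ones 64.3% and 51.0%. Outside these 2 clusters, the *Psmb9* share in WT and *Vsir-/-* was 61.4% and 47.2% in non-EM-like CD8+ T cells (-14.2 points, -23.8 to -4.41), 84.0% and 75.7% in neutrophils (-8.29 points, -15.5 to -1.89) and 61.4% and 56.5% in M2-like R2 macrophages (-4.89 points, -8.97 to -0.83). ILC2 had 56.7% and 38.6% (-18.1 points, -33.9 to -0.51), from 44 UMIs of both genes in *Vsir-/-*. In pDC the *Psmb8* share was 76.3% and 81.9% (5.56 points, 0.13 to 11.7) and the *Psmb10* share 73.8% and 60.7% (-13.0 points, -22.8 to -1.49), in opposite directions. The constitutive subunits enter these shares too. Their log2 ratios were above 0 in 13 of 14 clusters for *Psmb5* (median 0.33), 14 of 14 for *Psmb6* (median 0.34) and 12 of 14 for *Psmb7* (median 0.16). The share of all genes with such a run of signs is not given. In B cells the 3 shares differed by -0.61, -2.41 and -3.48 points, with intervals that spanned 0, and *Psmb5*, *Psmb6* and *Psmb7* had log2 ratios of 0.77, 0.89 and 0.71. The *Psmb8* share differed by 0.17 points (-4.17 to 4.94) in R1 and 1.78 points (-2.37 to 5.89) in other R2 macrophages.

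**Figure D5:**
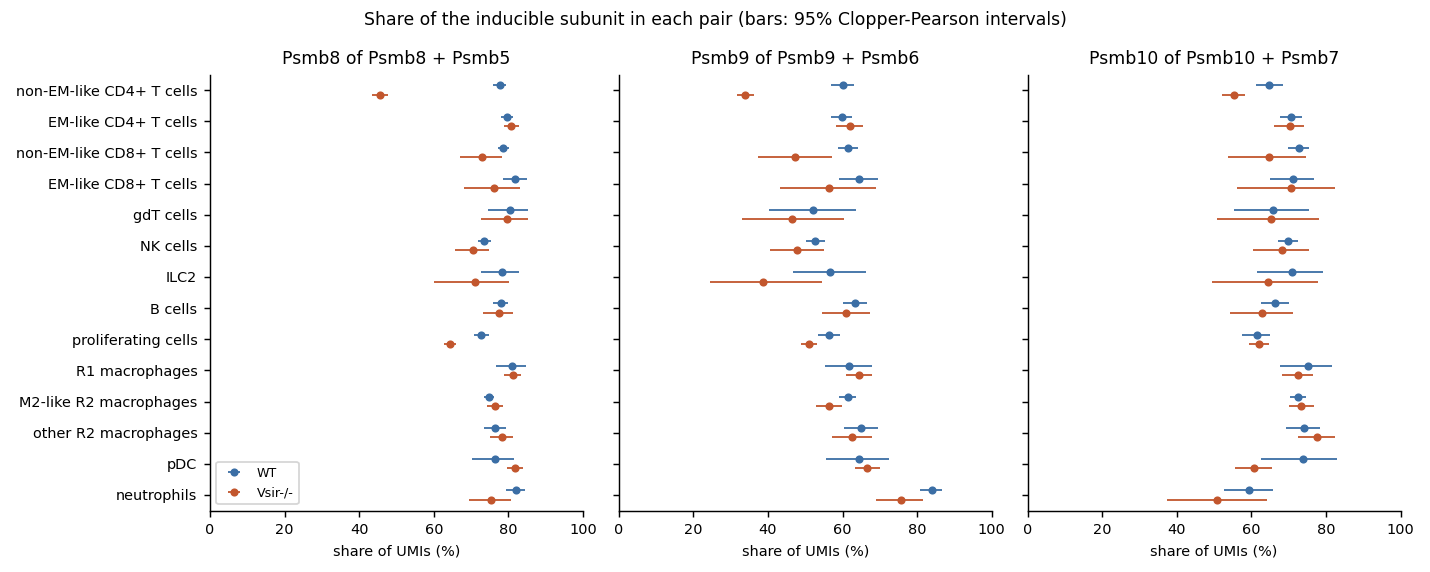
Share of UMIs (x axis, percent) taken by the inducible subunit in each pair, by cluster (y axis), in the WT (blue) and the *Vsir-/-* (orange) library, with 95% Clopper-Pearson intervals. The shares lie between 52.0% and 84.0% in WT, and the *Vsir-/-* non-EM-like CD4+ cluster stands apart at 45.7% for *Psmb8* and 33.9% for *Psmb9*.

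Other genes of the pathway were read from lists. Single genes were named because they had the most clusters past 2-fold in their list. No share of all genes stands beside their counts of clusters, here and in the lists below. Of the 10 genes of peptide supply and loading, 137 pairs with a cluster were compared (median 0.08). Of these pairs, 11 were at least 2-fold higher and 5 lower, or 8.03% and 3.65% against 17.4% and 9.48% of the pairs of all genes. The 11 higher pairs were concentrated, with 6 in B cells and 4 in the non-EM-like CD4+ cluster. *Hspa5*, *Canx* and *Calr*, chaperones of the endoplasmic reticulum, were past 2-fold higher in 3, 2 and 2 clusters, each in B cells (log2 ratios 1.21, 1.04 and 1.18; 16.3% of all genes were past 2-fold there) and in the non-EM-like CD4+ cluster (1.26, 1.78 and 1.41), where 47.8% of all genes were past 2-fold and the median of all genes was 0.91. *Lnpep*, an aminopeptidase of cross-presentation, was below 0 in 14 of 14 clusters (median -0.54) and 2-fold lower in B cells (-1.30). *Tapbpl*, the tapasin-related peptide editor, was 2-fold lower in 2 clusters (-1.04 in proliferating cells and -1.24 in ILC2), and *Psme3*, an activator of the proteasome, in 1 (-1.15 in non-EM-like CD8+ T cells).

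Of 157 pairs for 13 regulators, 8 were higher and 12 lower (median -0.13), or 5.10% and 7.64%, both under the shares of all genes. *Irf1*, an interferon-induced activator of class I genes, was above 0 in 10 of 14 clusters (median 0.24), with 71.8 CPM in WT and 146.8 CPM in *Vsir-/-* B cells (log2 ratio 1.04). *Nfkb1*, a subunit of NF-kappaB, was below 0 in 14 of 14 (median -0.57) and 2-fold lower in 3. *Ciita*, the class II counterpart of *Nlrc5*, was 2-fold higher in 4 of 9 clusters, among them M2-like R2 macrophages (42.8 and 100.9 CPM, log2 ratio 1.24) and pDC (90.7 and 265.4 CPM, 1.52), and 2-fold lower in other R2 macrophages (50.7 and 20.7 CPM, -1.26). *Rfx5*, which binds the same promoter module, was higher in 2 clusters and lower in 2, and *Irf8* higher in 1 and lower in 2.

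The nonclassical and class I-like genes had 136 pairs from the 15 listed genes found in the matrix, 12 higher and 18 lower (median -0.16), or 8.82% and 13.2% against the same 17.4% and 9.48%. *H2-Q10* was 2-fold lower in 6 of 11 clusters and below 0 in all 11 (median -1.36), as in M2-like R2 macrophages with 74 UMIs in WT and 6 in *Vsir-/-*, or 16.9 and 3.58 CPM. *H2-T24* was 2-fold lower in 4 of 10 clusters (median -0.78) and *Cd1d1*, which presents lipids to NKT cells, in 3 of 9 (median -0.79). H2-Q and H2-T genes are close relatives, so their reads may be split between copies. *Fcgrt*, the heavy chain that pairs with *B2m* in the neonatal Fc receptor, and *Hfe*, an iron regulator that binds *B2m*, were 2-fold higher in 4 of 9 and 4 of 8 clusters, with the largest ratios in the non-EM-like CD4+ cluster, where tubule genes were highest. There *Fcgrt* had 10 and 448 UMIs (5.37, 4.55 to 6.51) and *Hfe* 1 and 120 UMIs (6.28, 4.36 to 12.2). *Hfe* was 2-fold lower in neutrophils (20.2 and 6.44 CPM, -1.52, -3.33 to -0.33). *Mr1*, which presents vitamin B metabolites, was 2-fold higher in 2 of 5 clusters and lower in 1, NK cells, with 27 UMIs in WT and 0 in *Vsir-/-*.

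The share of cells with a UMI, which follows the mean level and the depth, was compared between libraries at equal depth. After every cell was thinned to 1000 UMIs, *B2m* was found in 91.2% to 95.4% of WT EM-like T, NK and R1 cells, and in 75.1% of WT B cells (72.2 to 77.8), 81.9% (71.1 to 90.0) in *Vsir-/-*. *Psmb8* was found in 34.6% of WT B cells (31.6 to 37.8) and 51.4% (39.3 to 63.3) in *Vsir-/-*, and in 36.7% and 48.8% of other R2 macrophages. Before thinning, at median depths of 3426 and 3596.5 UMIs, the *Psmb8* shares in B cells were 70.3% and 65.9%, in the opposite order. Thinning kept 947 of 969 WT and 72 of 88 *Vsir-/-* B cells. The shares before and after thinning are therefore over different cells, and the reason for the change of order was not tested. Of 140 pairs, 56 had the higher thinned share in *Vsir-/-* and 69 had the higher unthinned share there. In the *Vsir-/-* non-EM-like CD4+ cells *B2m* was found in 62.2% after thinning, against 83.9% in WT, in a cluster where 6.44% of the cells without a T cell UMI had one of *Ptprc*.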

How the data were processed

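Kidney cells from 1 WT and 1 *Vsir-/-* library were sequenced with a 10x Genomics single-cell 3′ kit. The authors deposited raw UMI counts per gene and cell, the percent of each cell's counts from mitochondrial genes, cluster and library names, and embedding coordinates, an arbitrary score that was not used. The submitters' processing notes name Cell Ranger 3.1.0, R 4.0.3, Seurat 3.2.3 and the build mm9, with no role given. The methods state that cells with more than 10% mitochondrial reads were removed. No doublet caller was applied here.

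Counts were summed by cluster and library, and CPM is the sum per 1000000 UMIs of that cluster. Log2 ratios used 0.5 UMI as pseudocount and exact conditional 95% intervals, CPM exact Poisson intervals and shares Clopper-Pearson intervals. Genes with at least 20 UMIs in a comparison and clusters with at least 10 cells in each library were compared, and a ratio past 2-fold counted as a call. With 1 library per genotype there was no test. For shares of cells with a UMI, cells were thinned to 1000 UMIs, which left out 167 WT and 78 *Vsir-/-* cells. The statistics were tested on simulated data (Python 3.11.15, numpy 2.4.6, scipy 1.17.1, pandas 2.3.3). Of 14 alternatives, 4 were chosen after seeing the data. All 10 members were named, and of each other list up to 3 genes with the most clusters past 2-fold in each direction, with ties decided by the size of the median. The 3 constitutive subunits and the 5 genes most like the members were also named. The members, lists and rules were chosen with earlier results of these data known. Sequences came from RefSeq (GRCm38.p6) and carry no coordinates of the authors' build.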

Additional observations from a re-analysis of the deposited data

Results flagged for a closer look

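*Tap2* and *Psmb8* each had log2 ratios of *Vsir-/-* over WT that were opposite in sign between clusters. *Tap2* was at 0.59 in B cells and at -1.07 in non-EM-like CD8+ T cells, the latter from 17 *Vsir-/-* UMIs. Without the deepest B cell of each library, the B cell ratio of *Tap2* was 0.46, with an interval that spanned 0 (-0.04 to 0.91). *Psmb8* was at 0.72 in B cells and at -0.75 in the non-EM-like CD4+ cluster, most of whose *Vsir-/-* cells had no T cell UMI. Over the cells with a T cell UMI in that cluster, *Psmb8* was at 0.09 (-0.07 to 0.24), not opposite in sign to B cells. Each value comes from 1 library per genotype, and the difference between the clusters was not tested.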

How the results depend on the processing

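The count of pairs at least 2-fold lower in *Vsir-/-*, 5 as reported, was 3 when T cell clusters were limited to cells with a T cell UMI, 3 when proliferating cells were limited too (chosen after seeing the data), and 12 when ratios were centred on each cluster's median of all genes. The count of pairs at least 2-fold higher, 0 as reported, was 3 after thinning, 1 with the mean over cells, 1 without the deepest cell of each cluster and library (chosen after seeing the data) and 8 after subtraction of a free RNA profile. That subtraction, which took away up to 85.7% of the UMIs of a cluster, also raised the clusters with a median above 0 from 7 to 11. With a threshold of 1.5-fold, 7 pairs were higher (26.4% of all pairs) and 8 lower (18.1%). The cause of these changes was not tested. The 31 lower immunoproteasome shares were 27 to 30 under the alternatives run. Across the alternatives the 5 called pairs gave 59 values past 2-fold and 11 below it in size, all below 0. No paired analysis was possible because there was 1 library per genotype. *Nlrc5* had 7 to 13 *Vsir-/-* UMIs in 3 of its 4 called clusters, which limits the precision there.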
